A study of Homo sapiens with 14 samples.

Results

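Expression of 10 genes of the extracellular matrix was followed, picked by name out of 24461 genes in the tables: 7 code for matrix proteins (FN1, TNC, THBS1, THBS2, SPARC, VCAN and BGN) and 3 for lysyl oxidases (LOX, LOXL1 and LOXL2). All 10 were found in both tables. Expression had been measured by RNA-seq in U251MG, an established human glioblastoma cell line, in 3 libraries each of 4 groups. The first pair of groups was radioresistant cells, which had been given X-rays in 30 fractions of 2 Gy to a total of 60 Gy, and control cells, whose treatment label is "Control" and names nothing else. The second pair was radioresistant cells with a short hairpin RNA against IFI16 (shIFI16) and radioresistant cells with the hairpin labelled shNC, so both of these groups carried the radiation history and a hairpin. The genotype label of every group is WT, and the labels name 1 hairpin against IFI16, no rescue and no separate cultures or clones. The p-values therefore measure the spread between libraries, which may be technical.

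Fibronectin (FN1), tenascin-C (TNC) and the thrombospondins (THBS1, THBS2) are secreted glycoproteins that cells grip through integrins and other receptors. SPARC binds collagen and calcium, versican (VCAN) is a large proteoglycan that binds hyaluronan, and biglycan (BGN) is a small leucine-rich proteoglycan. Lysyl oxidases are copper enzymes that oxidise lysines of collagen and elastin so that the fibres become cross-linked. Brain holds little fibrillar matrix, and glioblastoma tissue is known for tenascin-C, fibronectin and versican around its cells and vessels.

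Values were deposited as TPM (transcripts scaled for gene length and library total), and each library summed to 1000000, so the depth behind a value is unknown and levels of different genes can be compared within a library. Between 12361 and 13016 genes reached 1 TPM in a library. The columns of the tables carry codes, and UR and UN were read as radioresistant and control, and URS and URN as shIFI16 and shNC. IFI16, the targeted gene, stood at 7.68, 7.90 and 6.71 TPM in shIFI16 libraries, against 125, 140 and 127 TPM in shNC libraries, which goes with that reading. No such check exists for the first pair, where IFI16 stood at 250.8, 308.8 and 242.6 TPM in radioresistant libraries and at 70.3, 71.1 and 49.6 TPM in control libraries. Both tables were normalized separately, so every test was made inside a table, and levels set across tables below are descriptions only.

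Promoter sequences are shown for 4 of the genes, from RefSeq on GRCh38.p14, each covering the 250 bases before the annotated start, 5′ to 3′ on the gene's own strand. THBS1 (chr15:39580829-39581078, plus strand) and THBS2 (chr6:169253847-169254096, minus strand) are shown because these sister genes went in opposite directions in radioresistant cells. FN1 (chr2:215436069-215436318, minus strand) had the clearest fall of a matrix protein after knockdown, and LOX (chr5:122078260-122078509, minus strand) held an ATAC-seq summit of the radioresistant library inside the window. Capitals mark matches, on either strand, to 7 motifs that were searched: TGANTCA for AP-1, TGACGTCA for the cyclic AMP element (CRE), GGAATG for TEAD factors, GGGCGG for SP1, TATAAA for the core promoter box named TATA, and the ISRE and CArG motifs.
THBS1: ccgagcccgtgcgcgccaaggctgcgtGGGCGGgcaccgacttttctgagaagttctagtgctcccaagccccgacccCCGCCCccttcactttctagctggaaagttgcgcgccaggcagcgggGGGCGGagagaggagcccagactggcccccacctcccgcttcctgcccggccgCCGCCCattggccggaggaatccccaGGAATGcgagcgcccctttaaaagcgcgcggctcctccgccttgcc
THBS2: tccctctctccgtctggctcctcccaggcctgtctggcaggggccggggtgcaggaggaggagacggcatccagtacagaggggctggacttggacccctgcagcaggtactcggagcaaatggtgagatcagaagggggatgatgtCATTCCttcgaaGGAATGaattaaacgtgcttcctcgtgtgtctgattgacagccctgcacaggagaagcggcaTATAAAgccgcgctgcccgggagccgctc
FN1: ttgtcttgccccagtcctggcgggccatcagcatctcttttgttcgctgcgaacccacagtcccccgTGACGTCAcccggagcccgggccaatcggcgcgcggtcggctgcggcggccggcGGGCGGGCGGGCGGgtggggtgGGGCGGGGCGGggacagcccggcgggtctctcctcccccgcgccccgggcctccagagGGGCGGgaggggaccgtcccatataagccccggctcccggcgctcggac
LOX: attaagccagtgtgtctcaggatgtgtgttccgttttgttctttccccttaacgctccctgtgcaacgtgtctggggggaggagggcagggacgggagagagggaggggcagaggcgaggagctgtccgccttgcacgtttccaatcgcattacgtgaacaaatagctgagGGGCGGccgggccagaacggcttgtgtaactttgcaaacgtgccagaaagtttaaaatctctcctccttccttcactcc
The THBS2 window held 2 TEAD matches on opposite strands, at 103 to 98 and 91 to 86 bases before the start, and a TATA match at 29 to 24 bases. The THBS1 window held 1 TEAD match, at 46 to 41 bases, and 4 SP1 matches. FN1 held a CRE match at 183 to 176 bases and 6 SP1 matches, some of them overlapping, and LOX held 1 SP1 match. Among the promoters of 15843 coding genes, windows of the same length held TEAD in 10.2%, TATA in 9.35%, CRE in 2.29%, SP1 in 55.8%, AP-1 in 5.00%, ISRE in 2.71% and the CArG box in 1.16% of cases. No match to AP-1, ISRE or the CArG box was found in the windows of the 9 members with a promoter entry, and the LOXL1 window matched none of the 7 motifs. These matches are letters in a window and say nothing of a factor's binding.

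In radioresistant cells the matrix genes went different ways. THBS1 rose to 4.46 times and LOX to 2.06 times the control level, whereas TNC, VCAN, THBS2, LOXL2 and, most of all, LOXL1 fell against control cells. BGN also passed the test upward, at no more than 2.10 TPM in any library, and FN1 and SPARC did not pass. In all, 8 of the 10 genes passed, 3 of them upward and 5 downward, where 43.9% of all genes passed, 16.9% of all 13127 genes tested rose and 27% fell (limma, adjusted p under 0.05). Over all genes this made 2220 rises and 3542 falls as deposited, against 2976 and 2926 after median-ratio scaling and 2761 and 3106 after quantile scaling, while the 10 genes kept 3 rises and 5 falls under both. The median change of the 10 genes was -0.45 on the log2(TPM + 1) scale, and that of all genes tested was -0.11. Groups did not overlap for 8 of the 10 genes, as for 53.1% of all genes tested.

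**Figure D1:**
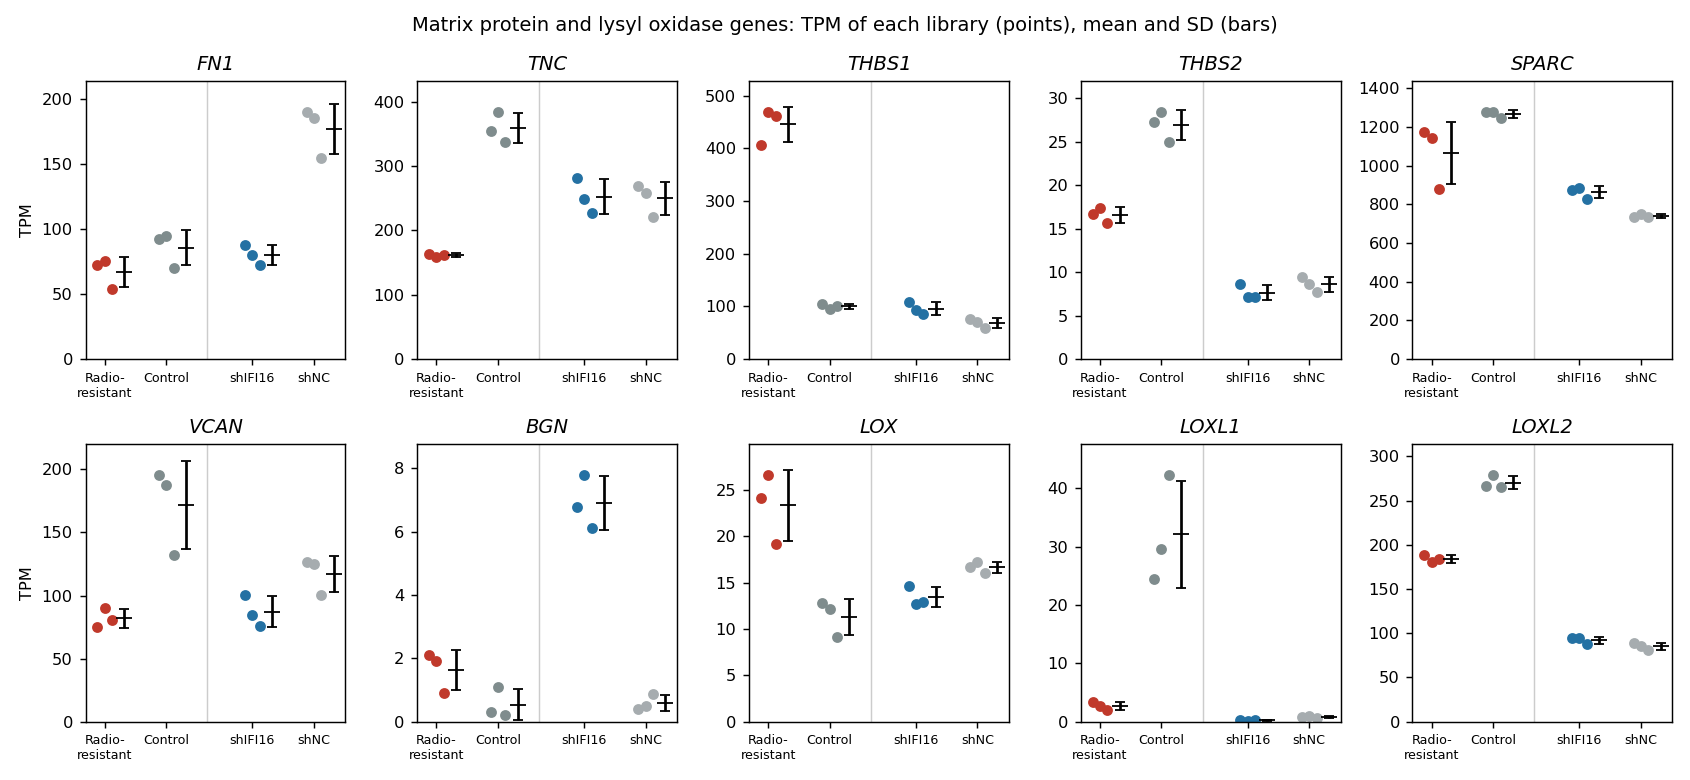
TPM of the 10 genes in each library; points are libraries, and the black mark and bar beside them are the mean and SD (n = 3). The panels compare groups on the same side of the grey line only, since each side is a separately normalized table: THBS1 stands at 407 to 469 TPM in radioresistant libraries above 95.7 to 104 TPM in control libraries, and BGN at 6.12 to 7.80 TPM in shIFI16 libraries above 0.407 to 0.866 TPM in shNC libraries.

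The thrombospondins parted. THBS1, which codes for a glycoprotein that activates latent TGF-beta and binds CD47 and CD36 (chromosome 15, 39581079 to 39599466), stood at 407, 469 and 461 TPM in radioresistant libraries, against 104, 95.7 and 99.8 TPM in control libraries. Every radioresistant library lay far above every control library, and the change was 2.14 on the log2(TPM + 1) scale (SE 0.104, limma adjusted p = 1.5e-07). THBS2, its sister (chromosome 6, 169215785 to 169253846), stood at 16.7, 17.4 and 15.6 TPM in radioresistant libraries, against 27.3, 28.4 and 25.0 TPM in control libraries. All radioresistant values were lower, with a log2 change of -0.67 (SE 0.120, limma adjusted p = 0.0013). The level of THBS1 was thus 26.9 ± 2.55 times that of THBS2 in radioresistant libraries and 3.73 ± 0.324 times in control libraries (mean ± SD of the ratio within a library, n = 3 each). The 3′ end of THBS1 shares 2027 bases with FSIP1, which averaged 0.938 TPM in radioresistant and 3.64 TPM in control cells.

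TNC, an anti-adhesive glycoprotein (chromosome 9, 115019575 to 115118157), stood at 164, 159 and 162 TPM in radioresistant libraries, against 355, 384 and 338 TPM in control libraries. The groups were far apart, and TNC fell by 1.15 on the log2 scale (SE 0.0994, limma adjusted p = 1.1e-05). VCAN (chromosome 5, 83471744 to 83582302) stood at 75.0, 90.1 and 80.4 TPM in radioresistant libraries, against 196, 187 and 132 TPM in control libraries, a fall of 1.04 (SE 0.153, limma adjusted p = 3.7e-04). Control replicate 3 was the lowest of its group for VCAN and still lay above all radioresistant libraries. FN1 (chromosome 2, 215360865 to 215436068) stood at 72.2, 75.4 and 53.9 TPM in radioresistant libraries, against 92.01, 94.97 and 70.3 TPM in control libraries. These ranges overlapped and the change of -0.35 did not pass (95% interval -0.70 to 0.00, limma adjusted p = 0.098). Without control replicate 3 the change of FN1 was -0.49 with an adjusted p = 0.0058, within a range of 0.0058 to 0.36 over 13 alternatives.

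SPARC (chromosome 5, 151661096 to 151686915) had the highest level of the 10 in every group, and ranked between 80 and 135 among all genes in the first table. Its values were 1172, 1143 and 881 TPM in radioresistant libraries, against 1276, 1277 and 1244 TPM in control libraries. Although the ranges did not overlap, the change of -0.26 did not pass (95% interval -0.54 to 0.02, limma adjusted p = 0.11). BGN (chromosome X, 153494980 to 153509546) stood at 2.10, 1.91 and 0.920 TPM in radioresistant libraries, against 0.292, 1.11 and 0.213 TPM in control libraries. Radioresistant replicate 3 lay under control replicate 2, so the groups overlapped, and the change was 0.80 (SE 0.249, limma adjusted p = 0.024). That call was lost without radioresistant replicate 1 (adjusted p = 0.086), without radioresistant replicate 2 (0.074), without control replicate 1 (0.062) and with no low-value filter (0.063), within a range of 0.0055 to 0.086. BGN also shares 486 bases with HAUS7, which averaged 40.04 TPM in radioresistant and 31.9 TPM in control cells, and the use of strand in counting is not given in the sources used here.

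The 3 lysyl oxidases changed in unlike ways. LOXL1, which cross-links elastin (chromosome 15, 73926462 to 73952136), stood at 3.45, 2.73 and 1.93 TPM in radioresistant libraries, against 24.5, 29.5 and 42.3 TPM in control libraries. It had the largest change of the 10 genes, -3.15 on the log2 scale (SE 0.214, limma adjusted p = 1.8e-06). LOXL1-AS1, a non-coding RNA that shares 1787 bases with LOXL1, stood at 6.537, 7.999 and 7.564 TPM in radioresistant libraries, against 15.9, 12.1 and 8.90 TPM in control libraries, a fall of 0.64 (SE 0.190, limma adjusted p = 0.020). LOX, the founding enzyme of the family (chromosome 5, 122063195 to 122078259), stood at 24.2, 26.6 and 19.1 TPM in radioresistant libraries, against 12.8, 12.1 and 9.13 TPM in control libraries. Radioresistant libraries were all higher, by 0.98 (SE 0.166, limma adjusted p = 9.0e-04). The whole span of LOX, 15065 bases, lies within that of SRFBP1 in RefSeq, and SRFBP1 averaged 17.8 TPM in radioresistant and 13.1 TPM in control cells with a change of 0.41 that did not pass (limma adjusted p = 0.069). How reads of this stretch were shared between the pair of genes is not given in the sources used here.

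LOXL2, which acts on collagen IV of basement membranes (chromosome 8, 23296897 to 23404120), stood at 188, 180 and 184 TPM in radioresistant libraries, against 266, 279 and 265 TPM in control libraries. It fell by 0.55 (SE 0.0956, limma adjusted p = 0.0010). The remaining family members LOXL3 and LOXL4 averaged 1.75 and 1.57 TPM in radioresistant cells and 3.51 and 5.84 TPM in control cells, and both fell (-0.73, adjusted p = 0.0040, and -1.42, adjusted p = 5.7e-05; limma). The summed level of the family was 213 ± 6.46 TPM in radioresistant cells and 323 ± 9.19 TPM in control cells (SD, n = 3 each). LOXL2 made up 86.3% of that sum in radioresistant and 83.7% in control cells. LOX made up 10.9% in radioresistant and 3.52% in control cells, and LOXL1 1.26% in radioresistant and 9.91% in control cells, so these 2 enzymes changed places in the order of the family.

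**Figure D2:**
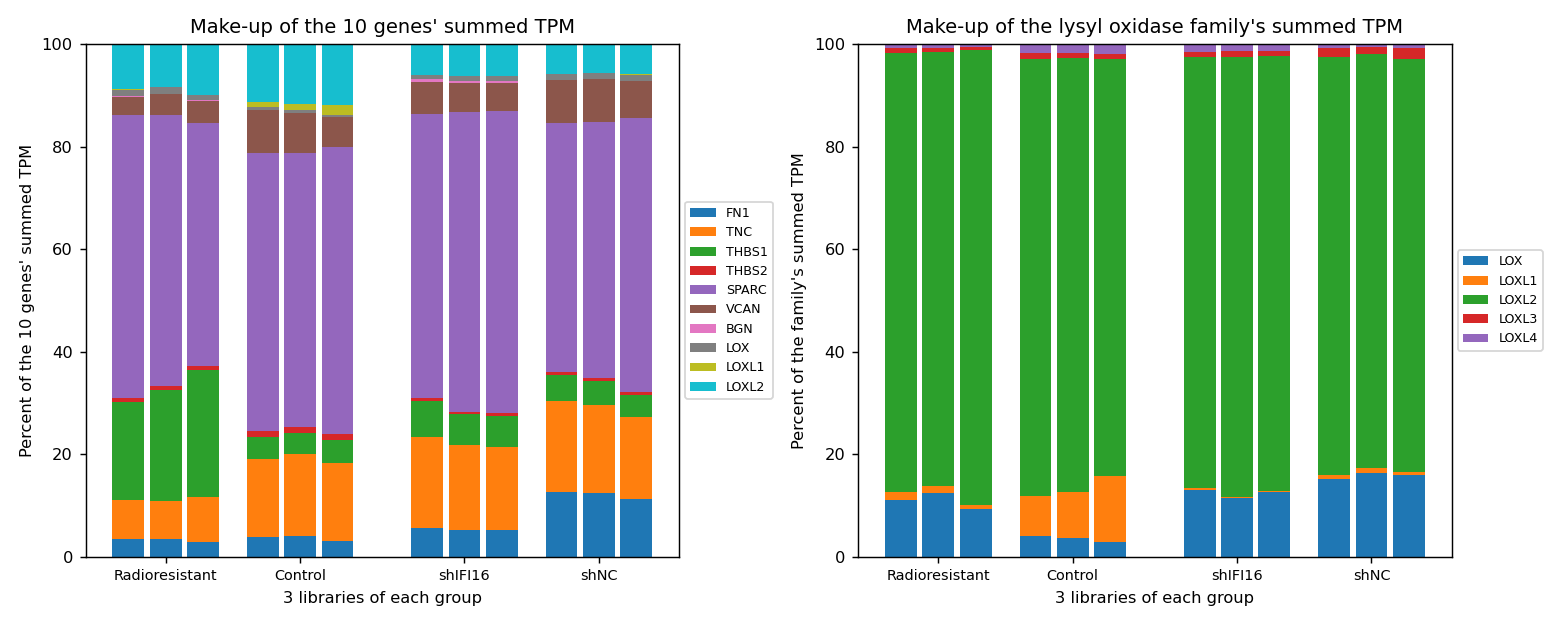
Left, share of each gene in the summed TPM of the 10 genes; right, share of each lysyl oxidase gene in the summed TPM of the family; 1 bar per library. In the first table THBS1 takes 21.9% of the 10 genes' sum in radioresistant cells and 4.31% in control cells, and in the second table FN1 takes 5.34% in shIFI16 cells and 12.1% in shNC cells.

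Summed over the 10 genes, TPM was 2050 ± 166 in radioresistant cells and 2324 ± 85.8 in control cells (SD, n = 3 each), or 0.205% and 0.232% of all transcripts. SPARC alone made up 51.8% of the sum in radioresistant and 54.5% in control cells. Behind SPARC, the order of mean levels in radioresistant cells was THBS1, LOXL2, TNC, VCAN, FN1, LOX, THBS2, LOXL1 and BGN, and the ranges of VCAN and FN1 and of LOXL1 and BGN overlapped. In control cells the order was TNC, LOXL2, VCAN, THBS1, FN1, LOXL1, THBS2, LOX and BGN, with overlap of LOXL1 and THBS2. THBS1 was thus in the second place in radioresistant cells and in the fifth in control cells.

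Markers of other cell types and of the line itself moved as well. Of the 11 astrocyte and glioma markers 8 were tested and all 8 fell, where 27% of all genes tested fell. S100B, 1 of the 8, passed the filter through control libraries alone, which set its direction. Of the untested markers, AQP4 and SLC1A2 averaged lower in radioresistant cells. ALDH1L1 averaged higher, at 0.501 TPM in radioresistant and 0.00812 TPM in control cells. The summed level of the list was 5970 to 6414 TPM in radioresistant and 13908 to 14107 TPM in control libraries. GFAP averaged 80.6 TPM in radioresistant and 4011 TPM in control cells. Of the fibroblast and pericyte markers, cells that make much of the matrix in tissue, DCN, LUM and COL3A1 were listed at 0 in all radioresistant libraries and averaged 0.0171, 0.0143 and 0.0776 TPM in control cells. PDGFRB of the same list averaged 1.30 TPM in radioresistant and 0.479 TPM in control cells (log2 change 0.65, limma adjusted p = 0.012), having passed the filter through radioresistant libraries alone, and FAP averaged 0.380 TPM in radioresistant and 0.123 TPM in control cells, too low to test. The summed level of that list, nearly all of it THY1, was 173 to 192 TPM in radioresistant and 210 to 247 TPM in control libraries. Immune markers summed to 19.9 to 23.5 TPM in radioresistant and 15.5 to 21.0 TPM in control libraries. In the same order, endothelial markers summed to 4.87 to 5.14 and 12.7 to 14.7 TPM. Epithelial markers summed to 39.4 to 55.5 and 50.9 to 72.0 TPM, and neuron markers to 17.9 to 24.2 and 25.7 to 35.9 TPM. Oligodendrocyte markers reached at most 1.02 TPM in any of these libraries. In bulk RNA, fewer cells of a type and less RNA per cell cannot be told apart, and the part of the marker changes in the matrix results was not tested.

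Receptors of these proteins fell more often than they rose in radioresistant cells, as did all genes tested (16.9% rose and 27% fell). Of 24 tested matrix receptors 4 rose and 11 fell, with a median of -0.32. The shares over all genes are also those to set beside the list counts that follow. PTPRZ1, a receptor phosphatase that binds tenascins, fell by 3.04, to 1.05 ± 0.329 TPM in radioresistant cells, against 15.8 ± 2.01 TPM in control cells. ITGB4 fell by 2.35 and ITGAV by 1.18, whereas ITGA5, the alpha chain of the main fibronectin receptor, rose by 1.72, to 109 ± 3.10 TPM in radioresistant cells, against 32.4 ± 0.878 TPM in control cells (largest limma adjusted p of these 4 was 6.5e-05). Of 24 genes of the TGF-beta pathway and its matrix targets 8 rose and 7 fell. PMEPA1, a target that feeds back on the pathway, fell by 3.03, LTBP1, which holds latent TGF-beta in the matrix, by 1.16, and SKIL, a repressor of SMADs, by 0.80, while CYR61, a matricellular protein, rose by 1.36 (limma adjusted p of at most 0.0011).

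Among 22 other matrix glycoproteins 3 rose and 13 fell (median -0.59). The fibrillin gene FBN2 (-1.72), the thrombospondin gene THBS3 (-2.38) and the laminin gene LAMA2 (-1.92) fell and the fibulin gene FBLN1 rose by 1.51 (limma adjusted p of at most 2.0e-05). Among 11 other proteoglycans and link proteins 3 rose and 6 fell, with the hyaluronan synthase gene HAS2 (-1.36), the glypican gene GPC4 (-1.26) and CSPG5 (-0.81) lower and the basement membrane proteoglycan gene AGRN (1.16) higher (limma adjusted p of at most 0.0018). On the list of lysyl oxidase partners 3 of 15 rose and 6 fell, the family members LOXL3 and LOXL4 among those that fell. PCOLCE2, an enhancer of procollagen processing, rose by 1.60 and SERPINH1, the collagen chaperone, by 0.55 (limma adjusted p of at most 0.0022). ATP7A, the copper pump that loads these enzymes, fell by 0.88, beside LOXL4 (limma adjusted p of at most 0.0013).

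Of 7 tested fibrillar collagens, substrates of the lysyl oxidases, 1 rose and 3 fell (median 0.01). COL1A2, the highest of them, averaged 653 TPM in radioresistant and 629 TPM in control cells. Its change of 0.04 did not pass (limma adjusted p = 0.81), nor did those of COL5A1 (0.01) and COL24A1 (0.08). COL5A2 (-1.48), COL11A1 (-1.46) and COL1A1 (-0.82) were lower in radioresistant cells and COL27A1 was higher (1.54), the last having passed the low-value filter through radioresistant libraries alone (limma adjusted p of at most 0.0042). Of 28 matrix proteases and inhibitors 6 rose and 10 fell. The urokinase gene PLAU fell by 2.77, to 99.6 ± 5.92 TPM in radioresistant cells, against 686 ± 15.6 TPM in control cells, MMP2 fell by 1.92 and PLAT by 1.70, and the versican-cleaving protease gene ADAMTS1 rose by 1.85 (limma adjusted p of at most 8.7e-06). Of 19 genes of the YAP/TEAD and mechanical response 9 rose, 4 fell and the others did not pass (median 0.16): CNN1 rose by 1.85, ZYX by 1.08, AJUBA by 1.02 and ACTA2 by 0.93, all linked to actin (limma adjusted p of at most 3.3e-04). The 4 that fell were ANKRD1 (-0.996), WWTR1 (-0.79), MKL2 (-0.56) and TEAD2 (-0.50), with limma adjusted p of at most 0.0191. These lists also count INHBA, MMP3 and TIMP3 as raised and FBLN7, THBS4 and BCAN as lowered, each of which passed the filter through the group where it is high, which set its direction. Quantile or median-ratio scaling moved these list counts by at most 2 genes.

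**Figure D3:**
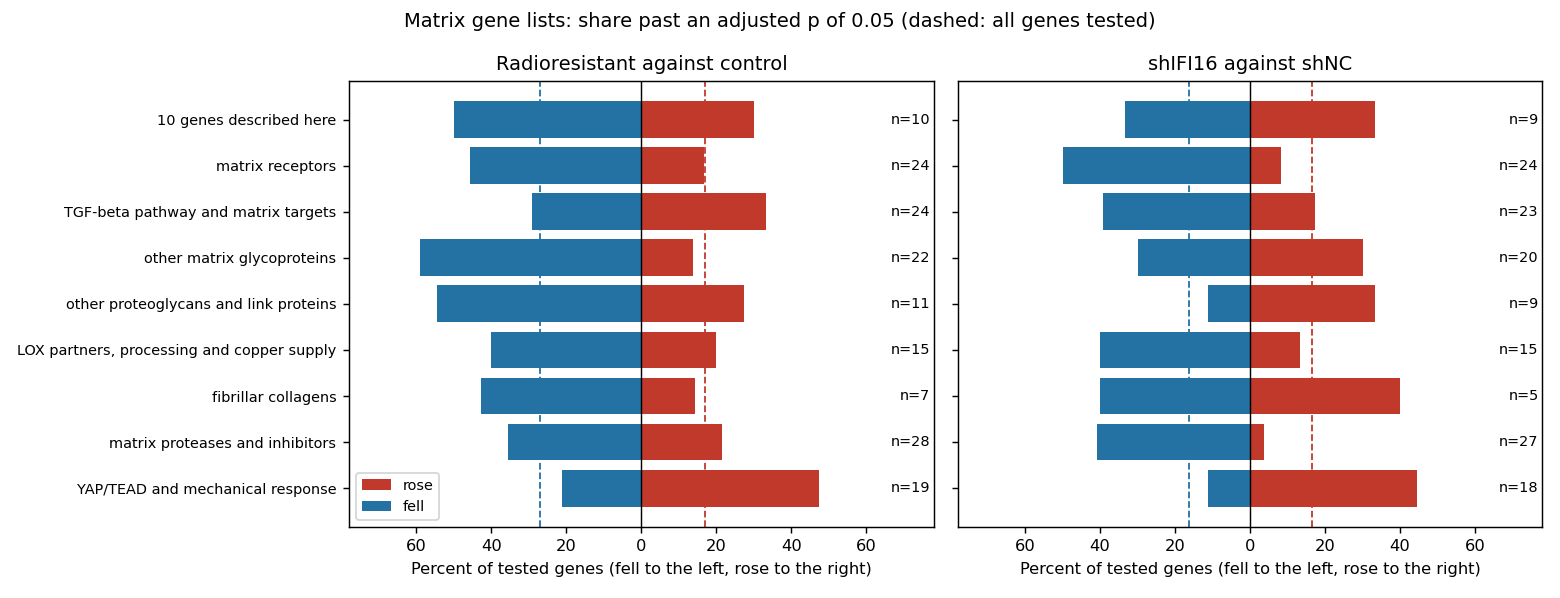
Share of tested genes of each list that rose (right of 0) or fell (left of 0) at an adjusted p under 0.05 by limma, with the number of genes tested at the right edge; dashed lines give the same shares over all genes tested. In radioresistant cells 13 of 22 other matrix glycoproteins fell, and after knockdown 11 of 27 matrix proteases and inhibitors fell and 1 rose.

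Knockdown of IFI16 in radioresistant cells left TNC, THBS2 and LOXL2 within the spread of the libraries, lowered FN1 to 0.453 times its shNC level and raised BGN, which was under 1 TPM in all shNC libraries. Smaller rises were found for THBS1 and SPARC and smaller falls for VCAN and LOX. LOXL1 was too low to test. Of the 9 genes tested 3 rose, among them BGN with a direction set by the filter, and 3 fell, where 32.9% of all genes passed, 16.6% of all 12567 genes tested rose and 16.3% fell. Their median change was 0.02, against 0.03 for all genes tested. Groups did not overlap for 5 of the 9 genes, where 44.8% of all genes tested did not overlap. BGN is 1 of the 5, and the filter set its lack of overlap as well.

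FN1 stood at 88.0, 79.7 and 72.6 TPM in shIFI16 libraries, against 190, 186 and 155 TPM in shNC libraries. Every shIFI16 library was lower, and the change was -1.13 (SE 0.0879, limma adjusted p = 3.3e-07). Its span shares 7728 bases with ATIC, which averaged 129 TPM in shIFI16 and 125 TPM in shNC cells. VCAN stood at 100.5, 84.9 and 76.0 TPM in shIFI16 libraries, against 126, 125 and 100.2 TPM in shNC libraries. The highest shIFI16 value just passed the lowest shNC value, and VCAN fell by 0.42 (SE 0.114, limma adjusted p = 0.017), a call lost without shIFI16 replicate 2 and with no low-value filter (both adjusted p = 0.052, within a range of 2.2e-05 to 0.052).

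BGN stood at 6.78, 7.80 and 6.12 TPM in shIFI16 libraries, against 0.407, 0.494 and 0.866 TPM in shNC libraries. It had the largest change of the tested members, 2.32 (SE 0.145, limma adjusted p = 1.2e-08). BGN passed the low-value filter through the shIFI16 libraries alone, so its direction was set by the filter, and HAUS7, with which it overlaps, averaged 43.6 TPM in shIFI16 and 42.7 TPM in shNC cells. THBS1 stood at 109, 92.2 and 86.4 TPM in shIFI16 libraries, against 76.1, 70.0 and 58.1 TPM in shNC libraries. All shIFI16 values were higher, and THBS1 rose by 0.49 (SE 0.106, limma adjusted p = 0.0039). SPARC stood at 873, 885 and 826 TPM in shIFI16 libraries, against 736, 749 and 732 TPM in shNC libraries, a rise of 0.22 (SE 0.0562, limma adjusted p = 0.0069). Without shIFI16 replicate 2 the rise of SPARC had an adjusted p = 0.055, within a range of 3.5e-04 to 0.055.

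LOX stood at 14.6, 12.7 and 12.9 TPM in shIFI16 libraries, against 16.7, 17.3 and 16.0 TPM in shNC libraries. The groups did not overlap and LOX fell by 0.29 (SE 0.0974, limma adjusted p = 0.031). That call was lost when any library other than shIFI16 replicate 1 was left out: the adjusted p was 0.13 without shIFI16 replicate 2, 0.062 without shIFI16 replicate 3, 0.077 without shNC replicate 1, 0.11 without shNC replicate 2 and 0.057 without shNC replicate 3, within a range of 0.0052 to 0.13. LOXL1 stood at 0.262, 0.163 and 0.231 TPM in shIFI16 libraries, against 0.811, 0.921 and 0.665 TPM in shNC libraries, all under the 1 TPM the test asked for. With no low-value filter its change was -0.56 (SE 0.0794, limma adjusted p = 0.0032). LOXL2 stood at 94.1, 95 and 87.6 TPM in shIFI16 libraries, against 89.0, 85.2 and 81.3 TPM in shNC libraries, and its change of 0.11 did not pass (95% interval -0.03 to 0.26, limma adjusted p = 0.22). LOXL3 averaged 1.12 TPM in shIFI16 and 1.81 TPM in shNC cells and LOXL4 1.55 TPM in shIFI16 and 0.818 TPM in shNC cells. LOXL4 passed the low-value filter through the shIFI16 libraries alone, so its direction was set by the filter. Their changes were -0.40 and 0.49 (limma adjusted p = 0.047 and 0.016), and neither call held in every alternative, with adjusted p up to 0.20 for LOXL3 without shNC replicate 3 and up to 0.064 for LOXL4 without shNC replicate 2. LOXL2 made up 84.96% of the summed TPM of the family in shIFI16 and 80.9% in shNC cells.

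TNC stood at 281.5, 249.5 and 226.3 TPM in shIFI16 libraries, against 270, 259 and 221 TPM in shNC libraries. The ranges overlapped almost fully and the change was 0.02 (95% interval -0.18 to 0.21, limma adjusted p = 0.92). THBS2 stood at 8.60, 7.15 and 7.15 TPM in shIFI16 libraries, against 9.42, 8.67 and 7.69 TPM in shNC libraries, with a change of -0.15 that did not pass (95% interval -0.40 to 0.09, limma adjusted p = 0.34). The ratio of THBS1 to THBS2 was 12.6 ± 0.424 in shIFI16 and 7.90 ± 0.300 in shNC libraries, and the ratio of TNC to FN1 was 3.15 ± 0.0446 in shIFI16 and 1.41 ± 0.0187 in shNC libraries (mean ± SD within a library, n = 3 each). Summed TPM of the 10 genes was 1498 ± 88.6 in shIFI16 and 1462 ± 78.5 in shNC cells (SD, n = 3 each). Behind SPARC, the order of mean levels in shIFI16 cells was TNC, THBS1, LOXL2, VCAN, FN1, LOX, THBS2, BGN and LOXL1, and the 4 genes from THBS1 to FN1 overlapped their neighbours, as did THBS2 and BGN. In shNC cells it was TNC, FN1, VCAN, LOXL2, THBS1, LOX, THBS2, LOXL1 and BGN, with overlap of LOXL1 and BGN.

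**Figure D4:**
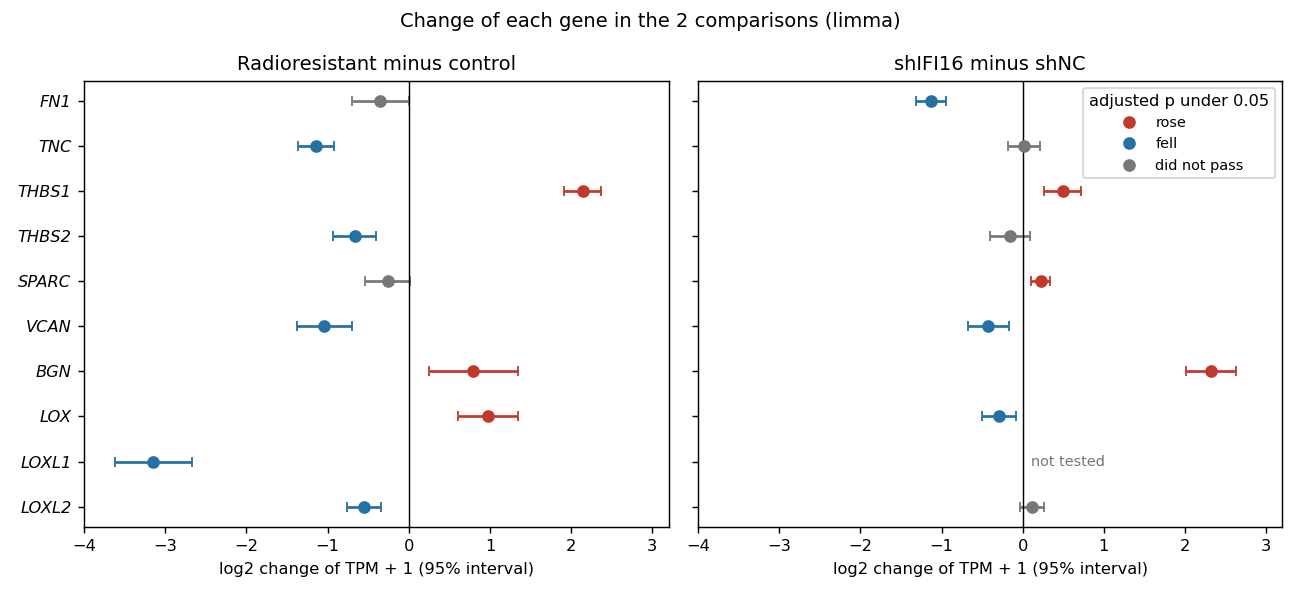
Change of each gene on the log2(TPM + 1) scale with its 95% interval, radioresistant minus control on the left and shIFI16 minus shNC on the right; red rose, blue fell and grey did not pass at an adjusted p under 0.05 by limma. THBS1 at 2.14 and LOXL1 at -3.15 stand at the ends on the left, and BGN at 2.32 and FN1 at -1.13 on the right, where LOXL1 was not tested.

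Each comparison rests on its own control group, and the values can be read side by side without a test of their difference. THBS1 rose in both comparisons (2.14 in radioresistant and 0.49 in shIFI16 cells), and VCAN fell in both (-1.04 and -0.42). BGN also passed upward in both (0.80 and 2.32), but the first call was lost in some alternatives and the filter set the second direction. LOX rose in radioresistant cells (0.98) and fell after knockdown (-0.29). The knockdown calls of VCAN and LOX were lost in some alternatives. LOXL1 fell in radioresistant cells and was too low to test after knockdown. Levels also stood apart between the separately normalized tables: THBS1 averaged 445 TPM in radioresistant cells of the first table and 68.1 TPM in shNC cells of the second, LOXL2 184 and 85.2 TPM, and FN1 67.2 and 177 TPM. Hairpin, table and any difference in culture cannot be told apart there.

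After knockdown 2 of 24 tested matrix receptors rose and 12 fell (median -0.18). Over all genes tested 16.6% rose and 16.3% fell, the shares to set beside this and the list counts below. The syndecan gene SDC2 rose by 1.10, to 40.8 TPM in shIFI16 cells, against 18.5 TPM in shNC cells, while the integrin genes ITGB5 (-0.96) and ITGA5 (-0.75) and the syndecan gene SDC1 (-0.59) fell (limma adjusted p of at most 1.5e-05). Of 23 genes of the TGF-beta pathway and its matrix targets 4 rose and 9 fell. The receptor gene TGFBR2 fell by 1.24, to 30.9 ± 2.93 TPM in shIFI16 cells, against 74.1 ± 4.25 TPM in shNC cells, and LTBP2 (-1.39), LTBP1 (-0.76) and the adhesion protein gene TGFBI (-0.55) also fell (limma adjusted p of at most 8.6e-06).

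Of 20 other matrix glycoproteins 6 rose and 6 fell. The osteopontin gene SPP1 fell by 1.79, to 116 ± 2.26 TPM in shIFI16 cells, against 403 ± 21.9 TPM in shNC cells, and ECM1 fell by 1.52, while the SPARC relative SPARCL1 (2.28) and the fibulin-family gene EFEMP1 (0.72) rose (limma adjusted p of at most 1.7e-05). SPARCL1 passed the filter through shIFI16 libraries alone, which set its direction, and so did HAS2 (0.95). Of 9 other proteoglycans and link proteins 3 rose, GPC4 (1.03), HSPG2 (1.00) and HAS2, and 1 fell, AGRN (-0.42), with limma adjusted p of at most 0.0012. On the list of lysyl oxidase partners 2 of 15 rose, LOXL4 among them, and 6 fell, LOXL3 among them. SERPINH1 rose by 0.74 (limma adjusted p = 4.5e-07). The copper chaperone gene ATOX1 (-0.64), the prolyl hydroxylase gene P4HA1 (-0.46) and the protease gene FURIN (-0.48) fell (limma adjusted p up to 7.0e-04).

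Of 5 tested fibrillar collagens COL11A1 (1.94) and COL27A1 (0.51) rose and COL1A2 (-0.58) and COL5A2 (-0.22) fell (limma adjusted p of at most 0.028). The call of COL27A1 was lost without shNC replicate 2 (adjusted p = 0.053) and without shNC replicate 3 (0.050). That of COL5A2 was lost without shIFI16 replicate 2 (adjusted p = 0.096) or 3 (0.083), without shNC replicate 1 (0.073) or 2 (0.093), with no low-value filter (0.058) and under plain moderation (0.073). Of 27 matrix proteases and inhibitors 1 rose and 11 fell after knockdown, and the others did not pass. The 1 that rose, TIMP3, passed the filter through the shIFI16 libraries alone, as did EMILIN2 among the glycoproteins and LOXL4 among the lysyl oxidase partners, which set their direction. MMP14, the membrane-bound collagenase, fell by 1.20, to 41.2 ± 3.80 TPM in shIFI16 cells, against 95.7 ± 3.17 TPM in shNC cells, and its substrate MMP2 fell by 1.09, PLAU by 0.77 and the inhibitor TIMP1 by 0.73 (limma adjusted p of at most 1.0e-06). In the YAP/TEAD and mechanical list 8 of 18 rose and 2 fell, with ANKRD1 (1.33), TAGLN (0.85), AMOTL2 (0.61) and AJUBA (0.60) among those raised (limma adjusted p of at most 3.9e-04). Here too scaling moved these list counts by at most 2 genes. The summed level of the epithelial markers, mostly KRT8 and KRT18, was 172 to 183 TPM in shIFI16 and 65.9 to 67.2 TPM in shNC libraries, with CDH1 at 0 in all shIFI16 libraries. The astrocyte and glioma list summed to 5048 to 5887 TPM in shIFI16 and 6898 to 7515 TPM in shNC libraries, most of it VIM, which averaged 4649 TPM in shIFI16 and 6526 TPM in shNC cells. Of 7 tested markers of that list 3 rose and 2 fell: GFAP rose by 3.56, to 31.1 TPM in shIFI16 cells, against 1.73 TPM in shNC cells (limma adjusted p = 3.6e-12), FABP7 and SOX2 also rose, and VIM and NES fell. The fibroblast and pericyte list summed to 195 to 210 TPM in shIFI16 and 142 to 146 TPM in shNC libraries, with DCN at 0 in all 6. The part of these markers in the matrix results was not tested.

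Genes with the most similar profile were sought by the root-mean-square difference of log2(TPM + 1) over the 12 libraries, after centring each gene within its table, among 12359 genes tested in both tables. The nearest 3 lie under the median distance by the way they were picked, so that contrast tests nothing. Nearest to THBS1 were CSMD2, KRT17 and ST6GALNAC5 (0.159 to 0.185, against a median of 0.834 over genes), and nearest to LOXL1 were CDH6, PMEPA1 and PLAU (0.251 to 0.253, against 1.13). Nearest to BGN were SUSD2, CHST1 and STMN3 (0.228 to 0.323, against 0.930). Nearest to FN1 were FAM26E, GRB10 and AHNAK2, to TNC PRKCA, HIPK2 and SLIT3, to VCAN PROX1, CREB3L2 and SLC39A10, and to LOX WARS, DSP and SEL1L3, all between 0.0666 and 0.105. Medians over genes were 0.413 to 0.4865 for these members. Nearest to THBS2 were SVIL, HDAC4 and AFAP1, to SPARC PFKFB4, PGM1 and PAAF1, and to LOXL2 DYNLL2, CCAR2 and ABL1, all between 0.0343 and 0.0630. Distances were small to most genes for these 3 members, with medians of 0.283, 0.235 and 0.254 in that order. Among the members themselves the closest pair was THBS2 and LOXL2 (0.126), both with such low medians, and the nearest member to BGN, SPARC, was 0.857 away. SPARC was also the nearest member to LOX, at 0.485, against a median of 0.451 over genes.

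Open chromatin at these genes was read from the deposited MACS2 summit lists, 1 library per condition, so nothing was tested. The radioresistant list held 12877 summits and the control list 2454, and a summit missing from the shorter list is weak information. Within the gene spans and 10 kb on each side, 14 summits at 7 of the 10 genes lay in the radioresistant list and 2 summits at 2 genes in the control list, where 44.6% and 10.2% of 20037 coding genes had one. Within 1 kb of the annotated start, the radioresistant list had a summit at FN1 (20 bases into the gene), SPARC (337 bases before it) and LOX (139 bases before it), 3 of the 9 genes with an annotated start, where 24.3% of 15843 coding genes had one. The control list had none there, where 4.42% of coding genes had one.

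LOX held a summit in both libraries in its first kilobases, at 122077145 in the radioresistant and 122076831 in the control list, 314 bases apart. The other gene with a summit in both was LOXL2, with positions 7 bases apart inside the gene. LOXL1 had 4 summits in the radioresistant list, from 1923 bases before its start to 30405 bases after it, and none in the control list, while its mRNA was lower in radioresistant cells. THBS1, TNC and BGN had no summit in the window in either list. The scores at these genes, -log10 q-values by the layout of the authors' files, ran from 1.39 at THBS2 to 8.36 at LOXL2 in the radioresistant list and were 4.63 at LOX and 3.51 at LOXL2 in the control list.

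**Figure D5:**
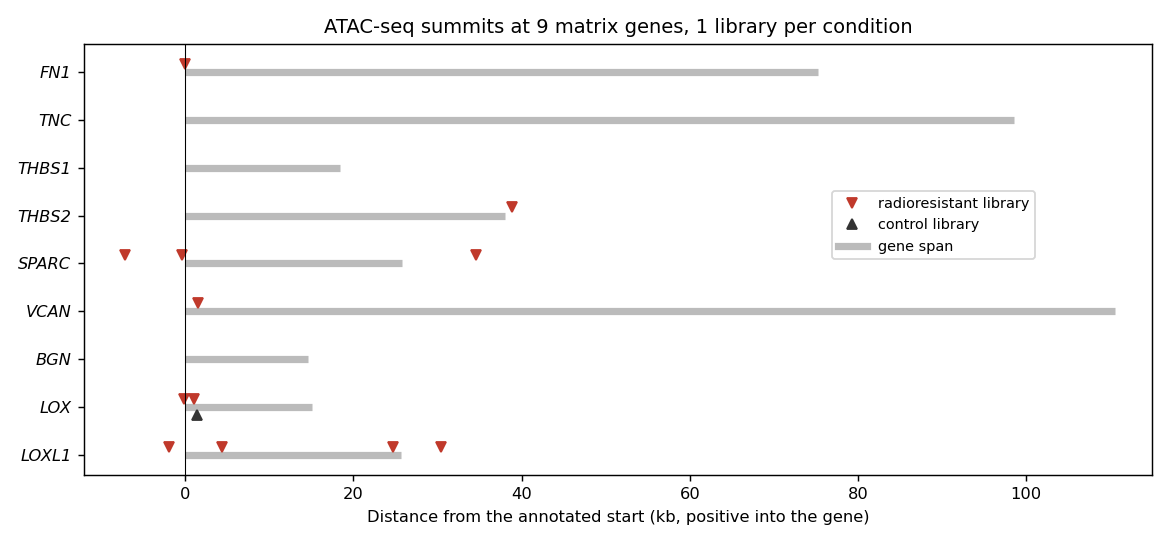
Summits of the deposited ATAC-seq lists by distance from the annotated start in kilobases, positive into the gene, for 9 of the 10 genes; red triangles are the radioresistant library, dark triangles the control library and grey bars the gene spans. The radioresistant list has summits at 6 of these genes, with 4 at LOXL1, and the control list has 1, at LOX.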

How the data were processed

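RNA-seq was measured in 12 libraries (4 groups of 3) and ATAC-seq in 2 libraries (1 per condition). The authors deposited TPM in 2 tables and ATAC-seq summits with a score that, by the layout of the file, is a −log10 q-value. Per the submitters' processing notes, Trim Galore 0.6.6, TopHat, Cufflinks 2.2.1, featureCounts, Bowtie2 2.2.5, SAMtools 1.10 and MACS2 2.1.4 were used with build hg38. The sources used here do not say which of these made the TPM, nor the annotation or strand setting. Columns were matched to groups by their codes, UN and UR through the names of the ATAC-seq files, and no column of other samples was found (0). Rows with date names (28 per file) were left out, 0.115 to 0.19% of TPM in the first and 0.119 to 0.139% in the second.

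TPM are not counts, so no count test was run. A gene entered the test on log2(TPM + 1) where 3 of a comparison's 6 libraries reached 1 TPM, with limma 3.58.1 (R 4.3.3; trended, robust moderation; Benjamini-Hochberg over all genes tested; threshold 0.05), after a check on simulated data. Fold changes on this scale understate those of low genes. For a list, the 4 genes with the smallest adjusted p were named where they passed; the 3 most similar genes were named per member. Intervals are 95%. Alternatives were a pseudocount of 0.1, no filter, a filter of 5 TPM, median-ratio and quantile scaling, plain moderation, the replicate number as a block, and each library left out. The members and lists were chosen with earlier results of these data known. Marker genes, genes whose direction the filter set, LOXL1-AS1, SRFBP1, LOXL3 and LOXL4 beyond the rule, and genes overlapping members, are given as context. So are the genes of the YAP/TEAD list that fell in radioresistant cells and the fibrillar collagens that did not pass there.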

Additional observations from a re-analysis of the deposited data

How the results depend on the processing

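No change of a member reversed under any of the alternatives where it had passed the test. Over the members and alternatives, 232 values kept their side of the threshold, 12 lost the call and 2 gained it. TNC in shIFI16 cells, which did not pass, changed sign among the alternatives (-0.07 to 0.09). The calls that were lost were those of BGN in radioresistant cells and of SPARC, VCAN and LOX in shIFI16 cells, and the 2 gained were of FN1 in radioresistant cells. Leaving out 1 library at a time gave 1 to 3 members lowered in shIFI16 cells, the 1 without shIFI16 replicate 2, against 3 with all libraries. Of the 9 members with an annotated start, 5 had an ATAC-seq summit within 5 kb in the radioresistant library and 1 in the control library. Of coding genes 28.4% and 5.06% had one there. Within 1 kb the numbers were 3 and 0, where 24.3% and 4.42% of coding genes had one. A score of at least 10 was reached by 668 of 12877 radioresistant summits. With that score 0 members had a summit within 1 kb, where 1.395% of coding genes had one. For the gene lists, 380 counts of rises or falls stayed within a set ratio of the main count over all alternatives and 36 did not. Among other named genes 897 values kept their side of the threshold and 17 lost the call. The causes were not tested.

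Correlations of deviations between libraries of the same replicate number were -0.38, 0.24 and 0.08 for radioresistant and control cells. For shIFI16 and shNC cells they were 0.22, 0.09 and 0.03. Between libraries of different numbers they ran from -0.43 to 0.39 in the first pair of groups and from -0.23 to 0.15 in the second. Whether replicate numbers pair the libraries was not tested. With the replicate number as a block, 3 members rose and 6 fell in radioresistant cells, FN1 being added (adjusted p = 0.036 by limma), and 2110 genes rose and 3462 fell overall. With the block in shIFI16 cells 3 members rose and 3 fell. Over all genes 3001 rose and 2609 fell with it, against 2088 and 2052 without it. The depth of the libraries is unknown, so genes near 1 TPM (BGN, LOXL1) carry an unknown counting error.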
